A study of Mus musculus with 3 samples.

Results

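The GFP+ cells sorted from the medial ganglionic eminence (MGE) of Lhx6-GFP mouse embryos at E12.5 (MGE-GFP+) were compared with the GFP+ cells sorted from differentiated ES cells at day 12 (ES-Lhx6-GFP+). The MGE-GFP+ RNA came from female embryos of CD1 background that carry an Lhx6-GFP BAC, and the MGE was dissected and dissociated with trypsin and DNase I. The ES-Lhx6-GFP+ RNA came from J14, a male mouse ES cell line of strain 129S4/SvJae with the Lhx6-GFP BAC and, per the labels, a viral 692-mCherry reporter. J14 cells were grown as embryoid body aggregates with Dkk-1 (100 ng/ml), an inhibitor of Wnt signaling, and SAG (6 nM), an agonist of the Sonic hedgehog pathway, and were dissociated on day 12 with a neural tissue enzyme kit and the Rock inhibitor Y-27632. Another array of the series held the GFP-negative J14 cells of the same differentiation (ES-Lhx6-GFP-). Each population was measured on 1 Agilent array, and without replicates nothing was tested, so that differences are described by their size. Strain, sex, age, tissue source and dissociation cannot be told apart from the population. In both populations GFP marks cells in which the regulatory sequences on the BAC are active, and the sort therefore used *Lhx6* activity itself.

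Genes were reported where at least 1 probe was brighter than the 95th percentile of 106 control probes (viral E1A and synthetic ERCC sequences, which mouse RNA does not hold) on at least 1 of the 2 arrays. This held for 11008 of the 20116 genes that the probes name, after 26 X- and Y-linked marker genes had been left out. A level is given below as the intensity of a gene divided by the 75th percentile of the intensities of mouse probes on that array, so that the ratio of 2 levels of a gene is its fold difference. At their 95th percentile the control probes had a level of 0.265 for MGE-GFP+ and 0.506 for ES-Lhx6-GFP+. A gene with at least 1 reported probe under that level is described as within the control range of that array. Of the reported genes, 2136 were above the control range on the MGE-GFP+ array alone, 541 on the ES-Lhx6-GFP+ array alone and 8308 on both arrays by every reported probe.

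The MGE is a ventral domain of the embryonic telencephalon in which *Nkx2-1* is switched on by Sonic hedgehog. Its progenitors leave the cell cycle under the control of *Dlx* genes and *Lhx6*, and give rise to cortical interneurons that use GABA and later express somatostatin or parvalbumin, to neurons of the globus pallidus, and to cholinergic neurons of the basal forebrain. Interneurons reach the cortex by a long tangential migration, guided by semaphorins, ephrins and Slit-Robo signals. Differentiation of ES cells in aggregates can yield such cells beside neurons of other axial levels.

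The levels of the 2 populations followed each other across the reported genes, with a Pearson r of 0.89 and a Spearman rho of 0.88 across genes, which are not independent replicates and share the probe sequences. Of the 11008 genes, 8985 (81.6%) differed by less than 2-fold. The median log2 difference, MGE-GFP+ minus ES-Lhx6-GFP+, was 0.13. Repeat spots of 1 probe on 1 array had a log2 SD of 0.144 for MGE-GFP+ and 0.139 for ES-Lhx6-GFP+, and 2 SDs of a difference were therefore 0.40, or 1.32-fold. This spread holds the printing and reading of the array and none of the variation between embryos, cultures, sorts or amplifications. In total 983 genes (8.93%) were at least 2-fold higher and 1040 genes (9.45%) at least 2-fold lower in MGE-GFP+ cells.

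The balance of higher and lower genes depended on the scaling between the arrays. Scaling to the 50th percentile in place of the 75th moved the median of all genes from 0.13 to 0.87 and gave 4634 higher and 458 lower genes. A gene is therefore called below only where it differed at least 2-fold in the same direction under 4 scalings: the 75th percentile, the 50th percentile, quantile normalization and the log2 values deposited by the authors. By this rule 682 genes (6.2%) were called higher and 451 genes (4.1%) were called lower in MGE-GFP+ cells. The rule is stricter for lower genes, since the 50th percentile shifts each difference upward. Of the genes called higher 337 were within the control range on the ES-Lhx6-GFP+ array, and of the genes called lower 358 were within it on the MGE-GFP+ array. When each array was raised to its own control level, 443 of the genes called higher and 427 of those called lower still differed at least 2-fold. These levels differ, at 0.265 for MGE-GFP+ and 0.506 for ES-Lhx6-GFP+. A gene at the first and just above the second therefore appears lower in MGE-GFP+ cells from the offset alone. The 2 counts cannot be set against each other, and differences below with each array raised to its control level can hold the same offset. Of the 181 called genes with several probes, 177 had all probes on 1 side.

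**Figure D1:**
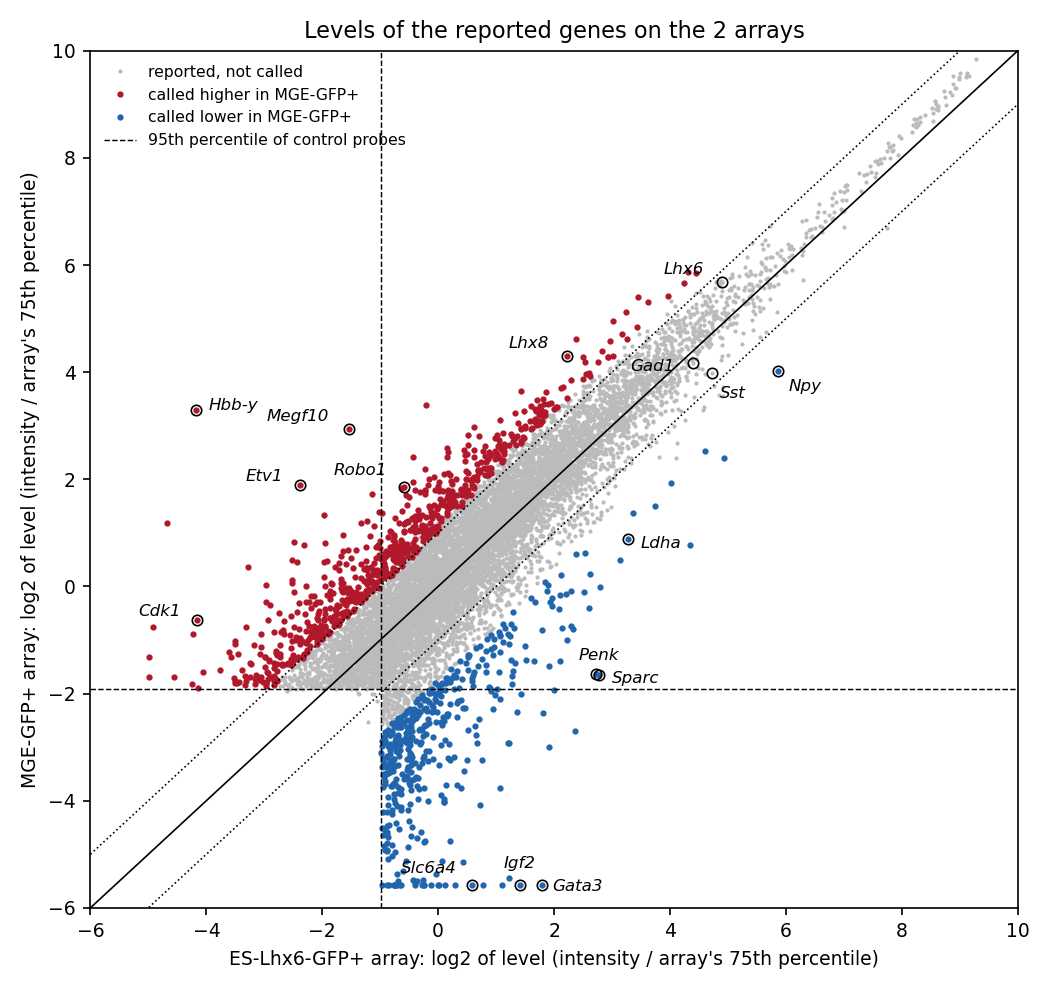
Each point is 1 of the 11008 reported genes, with its log2 level in ES-Lhx6-GFP+ cells on the x axis and in MGE-GFP+ cells on the y axis. Red and blue points are the 682 and 451 genes called higher and lower in MGE-GFP+ cells, dotted lines mark 2-fold, dashed lines the control range (levels 0.506 and 0.265), and the row of blue points at the bottom holds genes not well above background on the MGE-GFP+ array.

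The transcription factors that pattern the MGE and its interneurons were mostly higher in the embryonic cells. Of 27 such genes listed, 23 were reported, 10 were at least 2-fold higher and 9 were called higher, against 1 called lower. The median log2 difference of the list was 0.89, compared with 0.13 over all reported genes. *Lhx6*, which drives the sort marker and is required for the migration and specification of MGE interneurons, had a level of 51.1 in MGE-GFP+ cells and 29.8 in ES-Lhx6-GFP+ cells, a 1.71-fold difference that was not called. Its 3 probes were higher in MGE-GFP+ cells by 1.13-fold, 1.95-fold and 2.28-fold.

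*Nkx2-1*, the homeodomain factor that sets MGE identity, had a level of 14.5 in MGE-GFP+ cells and 4.92 in ES-Lhx6-GFP+ cells (2.96-fold). *Lhx8*, a LIM factor of MGE-derived cholinergic and pallidal neurons, had levels of 19.6 and 4.65 (4.22-fold). *Sox6*, which acts downstream of *Lhx6* in the maturation of interneurons, had levels of 18.2 and 5.78 (3.14-fold). The embryonic array was the brighter in each case, and the range over the 4 scalings was 1.27 to 2.31 for *Nkx2-1*, 1.63 to 2.82 for *Lhx8* and 1.35 to 2.40 for *Sox6* on the log2 scale. Among the Dlx homeodomain factors of the subpallium, *Dlx2* (10.6 and 3.56, 2.99-fold) and *Dlx5* (7.76 and 2.81, 2.76-fold) were called higher. Called as well were *Bcl11b* (3.45 and 1.05, 3.27-fold) and *Zeb2* (0.982 and 0.344, 2.86-fold), a repressor of *Nkx2-1* in migrating interneurons that was within the control range on the ES-Lhx6-GFP+ array. *Bcl11b* had 2 probes, which were 5.53-fold and 1.94-fold higher.

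Other factors of the same program lay closer together. *Dlx1* had levels of 34.2 and 23.4, and its log2 difference of 0.55 ranged from 0.22 to 1.30 over the scalings. The log2 differences of *Sox11* (0.76), *Satb1* (0.95), *Maf* (0.62), *Mef2c* (0.36), *Sox4* (0.31), *Dlx6* (0.25) and *Six3* (-0.15) were below 1, and that of *Tcf4* was 1.22 without being called. *Dlx6*, *Sox4*, *Mef2c* and *Six3* differed by less than 2 SDs of the repeat spots. *Npas1*, a bHLH-PAS factor of interneurons and of pallidal neurons, went the other way. Its level was 0.386 in MGE-GFP+ cells and 2.40 in ES-Lhx6-GFP+ cells, 6.20-fold lower in the embryonic cells. Its 2 probes were 2.88-fold and 13.4-fold lower, and the latter was within the control range on the MGE-GFP+ array (level 0.193).

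Genes for making and moving GABA had no common direction. Of 8 listed 7 were reported, each above the control range on both arrays, with a median log2 difference of -0.18. *Gad1* and *Gad2*, the enzymes that make GABA, had levels of 18.02 and 27.2 in MGE-GFP+ cells and 21.1 and 23.4 in ES-Lhx6-GFP+ cells, log2 differences of -0.23 and 0.22. The vesicular transporter *Slc32a1* differed by -0.18. These 3 differences were within 2 SDs of the repeat spots, and each changed sign between scalings. *Slc12a5* (KCC2), the chloride exporter of maturing neurons, had levels of 2.42 and 5.82 (2.40-fold lower), while *Slc12a2* (NKCC1), the chloride importer of immature neurons, had levels of 2.63 and 1.23 (2.15-fold higher). Neither of the chloride transporters was at least 2-fold different under every scaling. *Abat*, the enzyme that breaks GABA down, was called higher in MGE-GFP+ cells (3.47 and 1.35, 2.57-fold).

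Neuropeptides were split between the populations. Of 21 neuropeptide and subtype genes 13 were reported, 2 were called higher and 4 were called lower. *Npy*, neuropeptide Y, had a level of 16.3 in MGE-GFP+ cells and 58.3 in ES-Lhx6-GFP+ cells (3.57-fold lower). *Penk*, the precursor of the enkephalins, had levels of 0.321 and 6.57 (20.5-fold lower), and on the ES-Lhx6-GFP- array its level was 19.7. *Crhbp*, which binds corticotropin-releasing hormone, and *Cck*, cholecystokinin, were within the control range on the MGE-GFP+ array and were 17.9-fold and 7.17-fold lower there. With each array raised to its control level the differences were 4.98-fold and 2.62-fold.

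*Sst*, somatostatin, had a level of 15.7 in MGE-GFP+ cells and 26.3 in ES-Lhx6-GFP+ cells, 1.67-fold lower, and the log2 difference of -0.74 ranged from -1.01 to 0.01 over the scalings. The preprotachykinin gene *Tac1* was the reverse case, with levels of 5.69 and 1.13 (5.05-fold higher). *Crh* was called higher at 2.53-fold, but its level of 0.329 on the MGE-GFP+ array, above the control range there, was under the control level of 0.506 on the ES-Lhx6-GFP+ array. *Nxph1* (-0.23), *Cort* (0.06), *Pnoc* (-0.38) and *Kcnc1* (-0.45) were not called, nor were *Reln* (0.62) and *Npy1r* (-0.99).

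**Figure D2:**
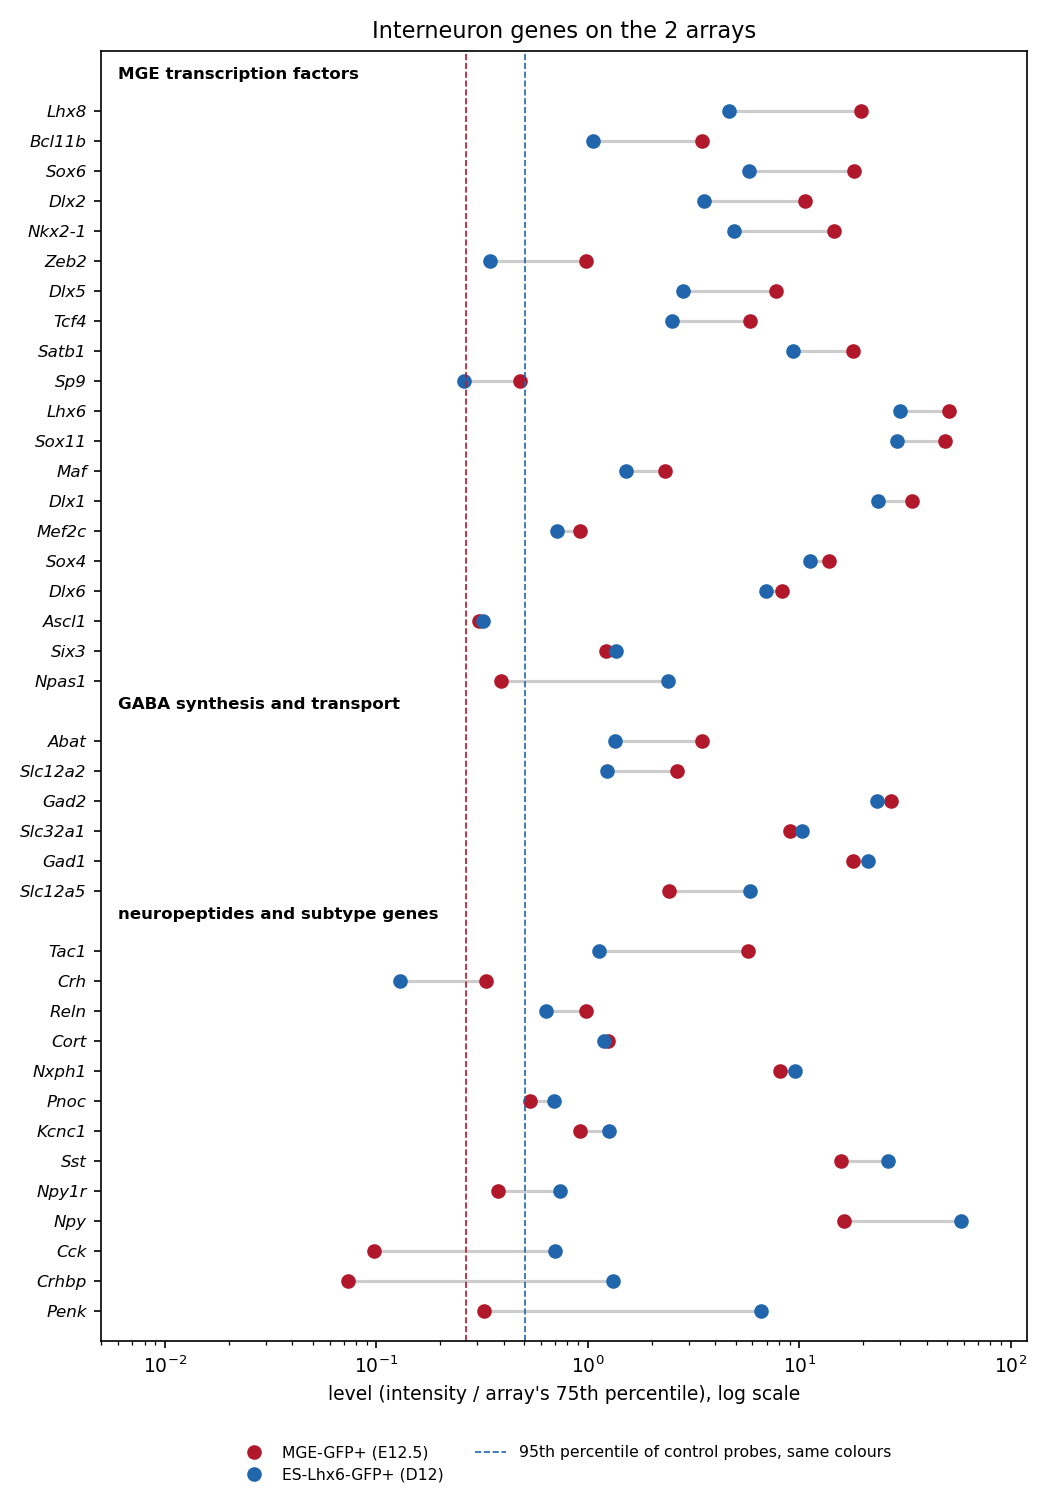
Levels of MGE transcription factors, GABA genes and neuropeptide and subtype genes on a log axis, with the MGE-GFP+ array in red and the ES-Lhx6-GFP+ array in blue, 1 array each and therefore without error bars. Most transcription factors, from *Lhx8* down to *Dlx6*, are to the right in MGE-GFP+ cells, while *Npas1*, *Slc12a5*, *Npy*, *Crhbp* and *Penk* are to the right in ES-Lhx6-GFP+ cells.

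Genes of the globus pallidus and of cholinergic neurons were the list with the highest median among those compared in the plot of gene lists. Of 20 listed 13 were reported, 8 were called higher and 1 lower, and the median log2 difference was 1.76. *Lhx8* and *Nkx2-1* are among the 8 and were also counted in the list of MGE factors. The cholinergic genes *Slc18a3* and *Slc5a7*, and *Isl1*, were within the control range on both arrays and not reported. *Etv1*, an ETS factor of pallidal neurons, had a level of 3.73 in MGE-GFP+ cells and 0.191 in ES-Lhx6-GFP+ cells, within the control range of the latter. Its 2 probes were 21.1-fold and 18.1-fold higher, with a mean of 19.5-fold, and 7.36-fold with each array raised to its control level. *Zic1* (12.5 and 2.70, 4.61-fold), a zinc finger factor of the septum and ventral forebrain, *Gbx2* (2.88 and 0.689, 4.18-fold) and *Kctd12* (3.47 and 0.760, 4.56-fold), an auxiliary subunit of GABA-B receptors, were above the control range on both arrays. *Zic4* (3.38-fold) was called too, and *Ngfr* did not differ beyond the repeat spots (0.02).

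More receptor and guidance genes were called higher than lower in the embryonic cells, by a rule that is stricter for lower genes. Of all reported genes 6.2% were called higher and 4.1% lower. Of 38 receptor genes for GABA, glycine and glutamate 22 were reported, and 6 (27.3%) were called higher and 0 lower. The list median of 0.16 was nevertheless close to that of all genes. *Gabra2*, a GABA-A receptor subunit (1.95 and 0.321, 6.08-fold), and *Glra2* (1.75 and 0.259, 6.74-fold), the embryonic glycine receptor subunit, were within the control range in ES-Lhx6-GFP+ cells. *Grm7* was 3.37-fold and *Grik2* 2.51-fold higher.

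Of 46 migration and guidance genes 37 were reported, 7 were called higher and 1 lower, with a median of 0.11. The Slit receptors *Robo1* (3.61 and 0.668, 5.40-fold) and *Robo2* (3.20 and 0.709, 4.51-fold) were higher in MGE-GFP+ cells. The ligand *Slit1* (0.185 and 0.642) was 3.47-fold lower and within the control range on the MGE-GFP+ array. *Plxna2*, a semaphorin coreceptor, had levels of 24.5 and 5.17 (4.74-fold). *Sema3c* (4.72-fold), *Epha4* (2.97-fold), *Epha3* (2.80-fold) and *Plxna4* (2.40-fold) were the other genes called higher.

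Some genes of cell division were higher in the embryonic cells. Of 40 cell cycle genes 28 were reported, 11 were called higher, 0 were called lower and 6 were below 0. The median of 0.90 includes genes that passed the filter through the MGE-GFP+ array alone. Over the 10 genes above the control range on both arrays it was 0.33, compared with 0.12 over all reported genes above it on both. The repeat spots give no spread for a median of genes. *Cdk1*, the kinase that drives mitosis, had a level of 0.644 in MGE-GFP+ cells and 0.0557 in ES-Lhx6-GFP+ cells, at least 11.6-fold higher, and 2.13-fold with each array raised to its control level. *Rrm2* (1.39 and 0.264, 5.26-fold) and *Mcm2* (1.29 and 0.292, 4.41-fold) serve DNA replication, and *Mki67* (0.937 and 0.353, 2.65-fold) marks cycling cells. Of the 11 called genes 10 were within the control range on the ES-Lhx6-GFP+ array, and 11 of 11 were brighter in ES-Lhx6-GFP- cells than in the sorted GFP+ fraction. So were 27 of the 28 reported cell cycle genes, called or not, compared with 45.6% of all reported genes. Of 15 genes of cell cycle exit 11 were reported, with a median of 0.41, and 3 were at least 2-fold different in each direction. Only *Ccng2*, given below, was called higher and only *Cdkn1a* (p21) lower. *Cdkn1a* was 12.1-fold lower in MGE-GFP+ cells (0.132 and 1.59) and within the control range there. *Prom1*, a surface protein of neural progenitors, was 4.29-fold higher (7.0 and 1.63).

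Genes of the midbrain, hindbrain and spinal cord were detected mainly in the ES-derived cells. Of 38 listed, 37 were named on the array and 16 were reported. Of these, 9 were called lower and 1, *Nr4a2*, was called higher. All 9 were within the control range on the MGE-GFP+ array and passed the filter through the ES-Lhx6-GFP+ array. The list median of -3.34 therefore follows in part from the filter. It was -0.45 over the 5 genes above the control range on both arrays. With each array raised to its control level it was -1.50, which holds in part the offset between the 2 levels (0.265 for MGE-GFP+, 0.506 for ES-Lhx6-GFP+). The GATA-TAL factors of V2b and midbrain GABA neurons were *Gata3*, *Gata2* and *Tal1*. *Gata3* was not well above background on the MGE-GFP+ array and had a level of 3.47 on the ES-Lhx6-GFP+ array, at least 165-fold lower in MGE-GFP+ cells, and 13.1-fold with each array raised to its control level. *Tal1* had levels of 0.125 and 3.75 (29.9-fold lower), and *Gata2* was at least 39.5-fold lower. All 3 lay within the control range in the embryonic cells and above it in the ES-derived cells.

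The genes of serotonergic neurons had the same direction. The serotonin transporter *Slc6a4* was at least 71.5-fold lower in MGE-GFP+ cells (level 1.499 in ES-Lhx6-GFP+ cells). *Tph2*, which makes serotonin in neurons, was 36.5-fold lower (0.0288 and 1.05), and *Fev* (Pet-1), the factor that specifies these neurons, was 14.9-fold lower (0.0918 and 1.37). With each array raised to its control level, the 3 differences were 5.65-fold, 3.97-fold and 5.16-fold. The patterning factor *Irx3* was at least 26.6-fold lower and *Lmx1a* 6.86-fold lower.

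The axial patterning genes *Hoxb2* and *Hoxb3* were at least 28.0-fold and 26.0-fold lower, although their levels of 0.588 and 0.545 in ES-Lhx6-GFP+ cells were just above the control range of 0.506. Of 39 Hox genes 6 were reported and 3 were called lower, the last being *Hoxc10* (20.2-fold). All 9 genes called lower in the midbrain, hindbrain and spinal cord list were brighter in ES-Lhx6-GFP- cells than in the sorted GFP+ fraction (*Gata3* at 11.6, *Slc6a4* at 7.16, *Tal1* at 7.88), as were *Hoxb2* and *Hoxb3*. The same held for all 16 reported genes of that list, called or not. The part of GFP-negative cells in these results was not tested. In a sorted population measured in bulk, fewer cells of a type and less RNA per cell cannot be told apart.

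Hypothalamic genes were lower in part. Of 32 listed 12 were reported, 5 were called lower and 1, *Nkx2-1*, was called higher. The list median was -0.71, but 0.33 over the 7 genes above the control range on both arrays. *Nkx2-2*, a Sonic hedgehog target of the hypothalamus and ventral neural tube, had levels of 0.132 and 2.34 (17.7-fold lower). *Lhx1* was above the control range on both arrays, with levels of 0.937 and 4.89 (5.22-fold lower). *Hmx2* (11.5-fold), *Rax* (10.3-fold) and *Agrp* (4.10-fold) were within the control range in MGE-GFP+ cells. Of 22 genes of the lateral ganglionic eminence and striatum 16 were reported, with 3 called in each direction. *Meis2* (0.746 and 4.24) was 5.68-fold and *Zfp503* 10.9-fold lower, beside *Penk*, while the retinoic acid receptor *Rarb* was 2.31-fold higher, beside *Tac1* and *Bcl11b*. Of 22 pallial genes 8 were reported, and *Tbr1* (1.02 and 0.128, 7.96-fold) and *Nfib* (2.21 and 0.827, 2.67-fold, with probes from 1.25-fold to 4.12-fold) were called higher.

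**Figure D3:**
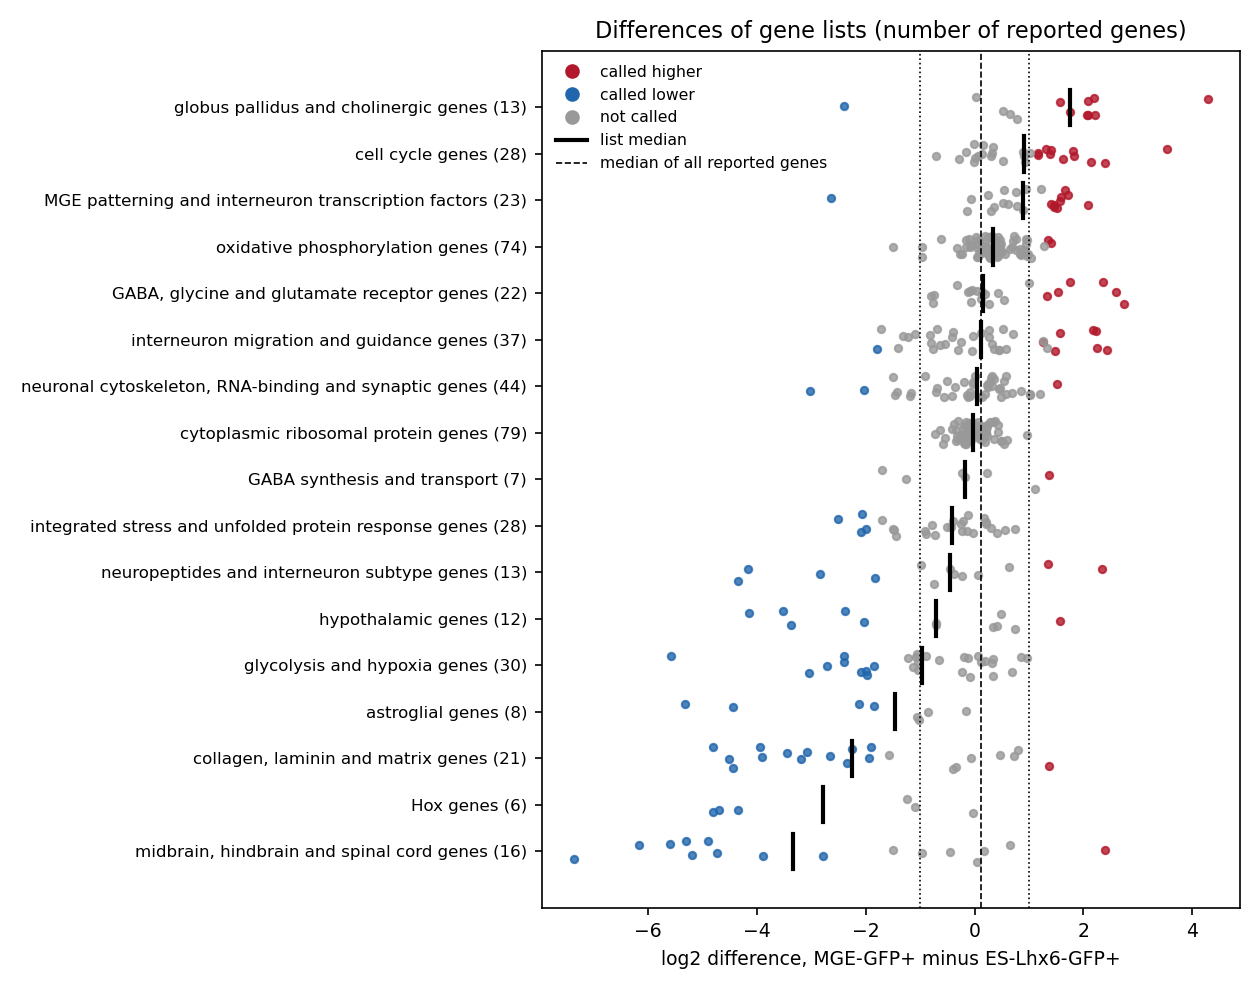
Log2 difference (MGE-GFP+ minus ES-Lhx6-GFP+) of each reported gene of 17 lists, ordered by the list median (black bar), with called genes in colour, 2-fold as dotted lines and the median of all reported genes (0.13) as a dashed line. The medians run from -3.34 for midbrain, hindbrain and spinal cord genes to 1.76 for globus pallidus and cholinergic genes, while cytoplasmic ribosomal protein genes cluster at -0.02. Medians of the lists at the bottom include genes within the control range on the MGE-GFP+ array.

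Many glycolysis and hypoxia genes were lower in the embryonic cells. Of 36 listed 30 were reported, 15 were at least 2-fold lower, 9 were called lower and 0 were called higher, with a median of -0.96. The median was between -0.21 and -1.06 over the 4 scalings, and -0.77 over the 26 genes above the control range on both arrays. Cells that are short of oxygen stabilize the HIF transcription factors, which raise glucose transporters, glycolytic enzymes and angiogenic signals, and the EGLN hydroxylases mark HIF for degradation. *Egln3*, a hydroxylase gene that HIF itself induces, had a level of 0.0281 in MGE-GFP+ cells and 1.34 in ES-Lhx6-GFP+ cells (47.8-fold lower, and 5.06-fold with each array raised to its control level). *Vegfa*, the angiogenic factor, had levels of 1.17 and 6.17 (5.26-fold lower).

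Transporters and enzymes had the same direction. The neuronal glucose transporter *Slc2a3* had levels of 0.383 and 3.14 (8.22-fold lower), and the lactate exporter *Slc16a3* had levels of 0.206 and 1.35 (6.55-fold lower). *Ldha*, which turns pyruvate to lactate, had levels of 1.84 and 9.66 (5.25-fold lower), and its 3 probes were lower by 3.26-fold to 7.30-fold. The glycolytic enzymes *Gpi1* (3.80 and 16.1, 4.24-fold), *Tpi1* (2.57 and 10.3, 3.99-fold), *Pfkp* (0.813 and 3.19, 3.92-fold) and *Aldoc* (0.251 and 0.901, 3.60-fold) were called lower too. The 2 probes of *Pfkp* disagreed, with 1 probe 16.1-fold lower and the other 1.05-fold higher in MGE-GFP+ cells, and its call rests on the former. *Pgk1* (2.05-fold) and *Eno1* (2.10-fold) were at least 2-fold lower without being called, and *Gapdh* (-0.08), *Hk1* (0.35) and *Pkm* (0.68) were not 2-fold different. *Egln3*, *Slc16a3* and *Aldoc* were within the control range on the MGE-GFP+ array. Of the 9 called genes 8 were brighter in ES-Lhx6-GFP- cells than in the sorted GFP+ fraction, the exception being *Pfkp*. The same held for 25 of the 30 reported genes of the list.

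Their promoters were searched for the core letters of the HIF response element, ACGTG or GCGTG, on both strands. Windows of 250 bases before the start were taken from the RefSeq table of GRCm38.p6 and found for 28 of the 30 reported genes. Shown is a window for each of 3 called genes of different roles, an enzyme, the hydroxylase and the lactate exporter. Sequences run 5′ to 3′ on the strand of the gene, with matches in capitals. The letters CACGTG match on both strands.
Ldha, chr7:46845554-46845803, + strand: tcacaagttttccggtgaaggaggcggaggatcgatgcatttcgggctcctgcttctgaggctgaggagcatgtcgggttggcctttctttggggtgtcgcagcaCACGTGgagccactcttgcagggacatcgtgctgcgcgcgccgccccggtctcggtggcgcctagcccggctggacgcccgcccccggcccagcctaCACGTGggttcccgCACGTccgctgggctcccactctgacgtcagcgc
Egln3, chr12:54203875-54204124, - strand: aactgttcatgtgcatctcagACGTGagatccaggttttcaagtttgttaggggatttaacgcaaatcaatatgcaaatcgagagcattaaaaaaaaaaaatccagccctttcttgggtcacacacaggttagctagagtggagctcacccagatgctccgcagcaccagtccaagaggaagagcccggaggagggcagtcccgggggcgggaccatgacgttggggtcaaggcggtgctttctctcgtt
Slc16a3, chr11:120948817-120949066, + strand: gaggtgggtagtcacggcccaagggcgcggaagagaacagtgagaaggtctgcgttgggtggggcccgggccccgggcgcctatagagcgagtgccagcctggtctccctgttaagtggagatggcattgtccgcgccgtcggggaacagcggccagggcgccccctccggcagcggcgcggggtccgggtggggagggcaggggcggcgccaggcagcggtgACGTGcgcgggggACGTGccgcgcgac
The *Ldha* window shown held 5 matches over both strands, that of *Egln3* 1 and that of *Slc16a3* 2. Another *Ldha* window, not shown, held 1. Among called genes not shown, the windows of *Gpi1* and *Tpi1* and a window of *Vegfa* held 0. Of 41 windows of the reported list, with several starts for some genes, 32 (78.0%) held a match, compared with 12679 of 32851 windows (38.6%) of all genes in the table. The share was 8 of 11 windows for the called genes and 24 of 30 for those of the list that were not called. A match describes these letters and no binding.

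Other metabolic lists differed less. Of 75 oxidative phosphorylation genes 74 were reported, 62 were above 0 and the median was 0.34. It was 0.10 under quantile normalization, 0.11 in the deposited log2 values and 1.09 under the 50th percentile, and the brightest 2202 of all reported genes had a median of 0.30 under the 75th percentile, close to that of the list. Of the oxidative phosphorylation genes, *Uqcrfs1* (28.5 and 10.8, 2.64-fold) and *Cycs* (7.71 and 3.02, 2.55-fold) were called higher. None of the 79 reported ribosomal protein genes was 2-fold different. In the integrated stress and unfolded protein responses 4 of 28 genes were called lower and 0 higher. *Atf5*, a stress-induced bZIP factor, had levels of 5.80 and 24.3 (4.19-fold lower), *Chac1*, a glutathione-degrading enzyme, 0.459 and 1.94 (4.23-fold), and *Nupr1* (5.71-fold) and the amino acid transporter *Slc7a5* (3.97-fold) were within the control range in MGE-GFP+ cells. The cochaperone *Bag3* was 5.84-fold lower (0.191 and 1.11) and was also within the control range in MGE-GFP+ cells.

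A number of matrix and glial genes were higher in the ES-derived cells. Of 44 collagen, laminin and other matrix genes 21 were reported, 13 were called lower in MGE-GFP+ cells and 1, *Col9a3*, higher. The median was -2.25, but -0.35 over the 7 genes above the control range on both arrays. Most of the others passed the filter through the ES-Lhx6-GFP+ array alone. With each array raised to its control level the median was -1.16, which holds in part the offset between the 2 control levels. *Sparc*, a collagen-binding protein, had levels of 0.318 and 6.88 (21.6-fold lower), and 19.9 in ES-Lhx6-GFP- cells. The basement membrane genes *Col4a1* (0.263 and 4.02, 15.3-fold), *Col4a2* (0.248 and 2.69, 10.9-fold), *Lamb1* (0.284 and 2.41, 8.50-fold) and *Nid1* (0.0368 and 0.842, 22.9-fold) were lower, and so were *Col3a1* (28.0-fold) and *Col1a2* (9.17-fold), which fibroblasts make. Of the 13 genes called lower 11 were within the control range on the MGE-GFP+ array and 9 were brighter in ES-Lhx6-GFP- cells than in the GFP+ fraction. Of the 21 reported genes of the list 12 were brighter there. Of 14 astroglial genes 8 were reported and 4 were called lower, *Sparcl1* by 40.0-fold (0.0244 and 0.974) and *Clu* among them, and *Gfap* and *Aldh1l1* were not reported. *Sparc* and *Aldoc*, counted in lists above, are also among the 4. All 4 were within the control range on the MGE-GFP+ array. All 4, and 7 of the 8 reported, were brighter in ES-Lhx6-GFP- cells than in the GFP+ fraction.

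**Figure D4:**
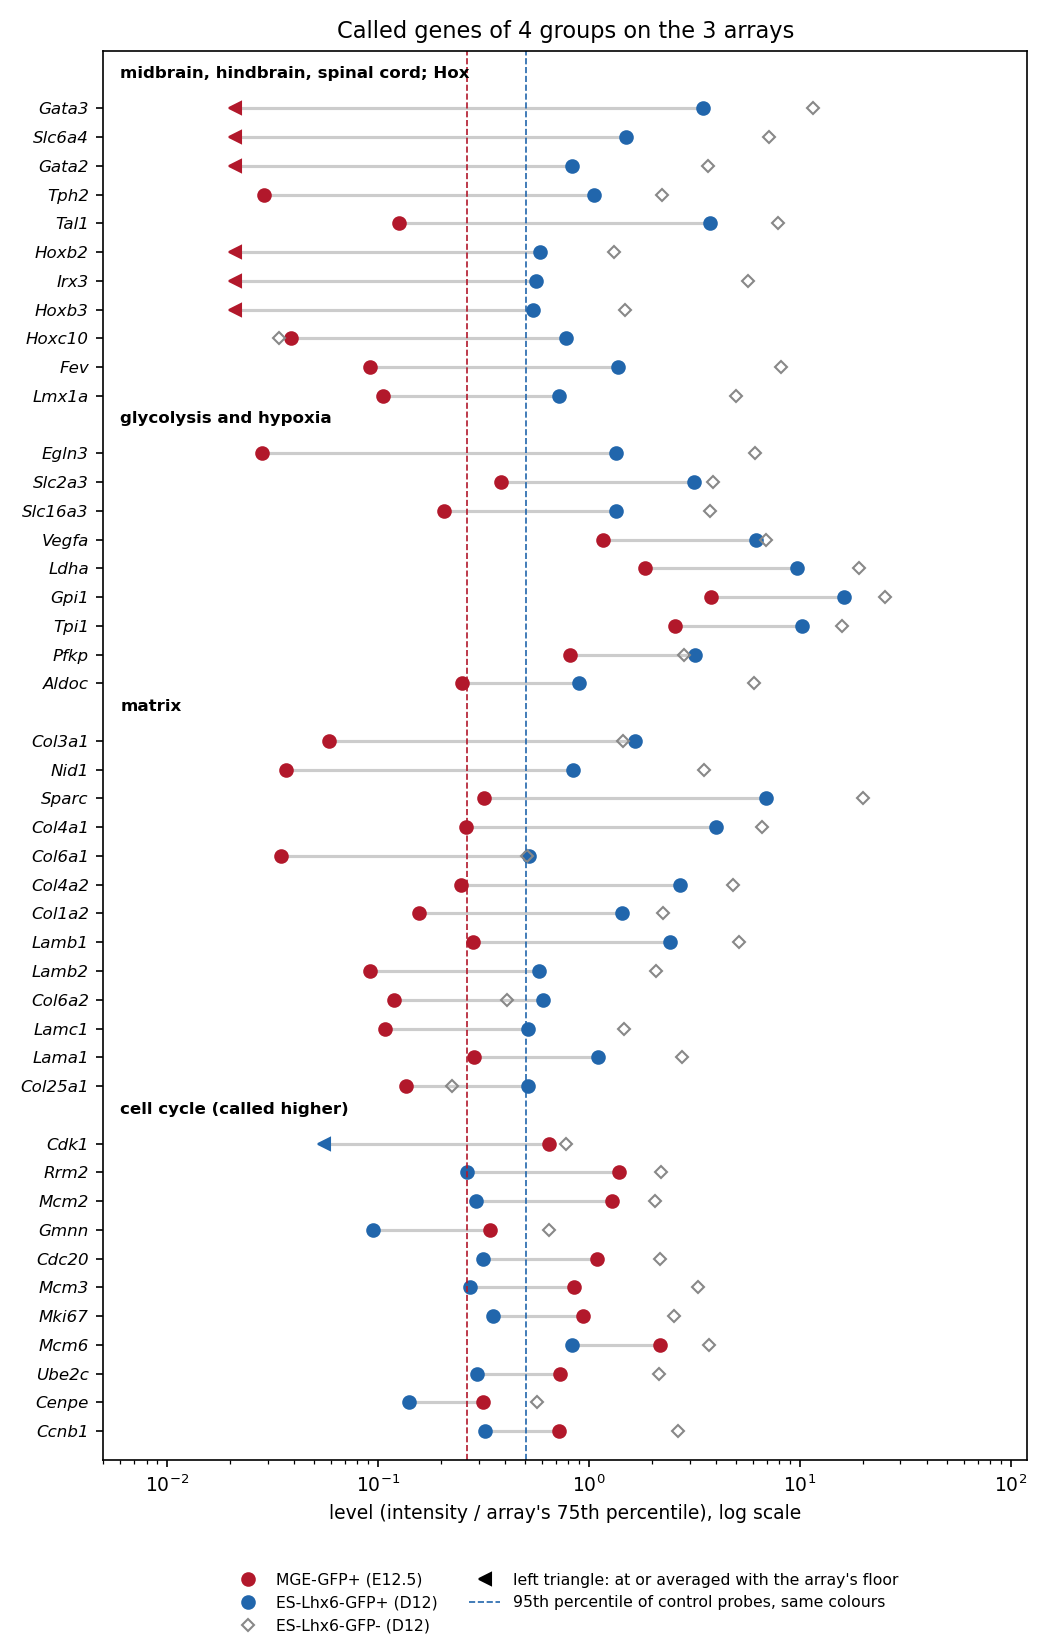
Levels on a log axis of genes called lower in the midbrain, hindbrain, spinal cord and Hox, glycolysis and hypoxia, and matrix lists, and of the cell cycle genes called higher, on the MGE-GFP+ (red), ES-Lhx6-GFP+ (blue) and ES-Lhx6-GFP- (open diamonds) arrays, 1 array each. Most diamonds of the first 3 groups lie to the right of the blue points, *Hoxc10* and *Pfkp* being among the exceptions, and the dashed lines show that many red points are within the control range of 0.265.

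Signaling and neuronal lists held small numbers of called genes, which were not always small shares. Of all reported genes 6.2% were called higher and 4.1% lower. The share called higher was 23.1% for BMP and TGF-beta, 12.5% for retinoic acid, 11.8% for FGF, 11.1% for Sonic hedgehog and 5.9% for Wnt genes. It was 2.3% for genes of the neuronal cytoskeleton, RNA binding and synapse. The share called lower was 12.5% for retinoic acid, 4.5% for these neuronal genes and 0 for the other signaling lists. At least 2-fold differences, called or not, were 3 higher and 2 lower for BMP and TGF-beta, and 2 in each direction for FGF. They were 2 higher and 1 lower for retinoic acid, 1 and 2 for Wnt, and 1 and 0 for Sonic hedgehog. The signaling list medians ran from -0.07 for BMP and TGF-beta to 0.38 for retinoic acid. In the BMP and TGF-beta list 3 of 13 reported genes were called higher, the receptor *Tgfbr1* (6.17 and 2.23, 2.77-fold), the effector *Smad5* (3.08-fold) and the ligand *Tgfb2* (2.54-fold, with probes at 1.87-fold and 3.45-fold), and 0 lower. In the Sonic hedgehog list 1 of 9 was called, the coreceptor *Cdon* (3.86 and 1.01, 3.82-fold higher). Of 17 reported genes each, the FGF list had *Il17rd*, an inhibitor of FGF signaling, 3.59-fold higher beside *Etv1*, and the Wnt list had *Fzd2*, a Wnt receptor, 4.77-fold higher. *Cyp26b1*, which breaks retinoic acid down, was 5.18-fold lower (0.142 and 0.734), beside *Rarb* among 8 retinoic acid genes. *Cyp26b1* was within the control range in MGE-GFP+ cells.

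Of 44 reported genes of the neuronal cytoskeleton, RNA binding and synapse, 42 were above the control range on both arrays, 1 was called higher (*Nlgn1*, 2.86-fold) and 2 lower, the synaptic vesicle genes *Sv2c* (0.102 and 0.828, 8.09-fold) and *Syn2* (0.433 and 1.78, 4.11-fold). *Sv2c* was within the control range on the MGE-GFP+ array. The list median was 0.04. Of 27 voltage-gated channel genes the potassium channel *Kcnc2* was 2.53-fold higher and the calcium channel subunit *Cacna2d1* 4.19-fold lower. Among progenitor genes, *Nr2e1* (1.34 and 0.398, 3.38-fold) and the Notch ligand *Dll3* (2.99 and 1.33, 2.24-fold, with probes at 1.35-fold and 3.70-fold) were higher and *Gadd45g* (0.820 and 3.81, 4.64-fold) lower. *Pou3f1*, a POU factor, was 4.09-fold higher (3.48 and 0.850), *Ccng2*, a cyclin of cell cycle exit, 2.68-fold higher, and *Scgn*, secretagogin, the 1 gene of the caudal ganglionic eminence list called higher, 5.23-fold. The oligodendrocyte list had *Mbp* 2.31-fold higher (log2 1.21, but -0.15 when probes within the control range on both arrays were kept) and *Mog* (3.82-fold) and *Bcas1* (3.51-fold) lower, beside *Nkx2-2*.

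Of 10 reported pluripotency genes 1 was called higher and 0 were called lower. Of 33 imprinted genes *Zdbf2* (0.187 and 1.11, 5.92-fold) and *Igf2*, described below, were called lower, both within the control range on the MGE-GFP+ array. The methyltransferase *Dnmt3b* and the methyl-CpG binding gene *Mbd1* were 2.38-fold and 2.27-fold higher among 12 DNA methylation genes, both within the control range on the ES-Lhx6-GFP+ array. The difference of *Mbd1* was -0.10 on the log2 scale when probes within the control range on both arrays were kept. Of 15 immediate early genes 6 were at least 2-fold lower, 0 of them called, and *Nr4a2* (3.88 and 0.742, 5.24-fold) was called higher. No cholesterol synthesis gene among 27 was called.

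The largest single differences, by the rule that took the 15 leading called genes in each direction, included genes outside these lists. In MGE-GFP+ cells *Megf10*, an engulfment receptor, had levels of 7.66 and 0.346 (22.1-fold higher). *Kif5b*, a kinesin heavy chain, and *Angpt1*, a ligand of the Tie2 receptor, were at least 17.8-fold and 12.8-fold higher, but *Kif5b* was 1.17-fold higher with each array raised to its control level and *Angpt1* then had no value. *Lima1* (2.51 and 0.254, 9.87-fold), *Sh3rf3* (1.77 and 0.179, 9.91-fold), *Mpi* (1.72 and 0.202, 8.53-fold), 1700048O20Rik (12.5-fold), *Ppp1r1c* (10.14-fold), *Akr1c19* (at least 9.83-fold) and *Kctd8* (8.17-fold) complete the genes not yet named except for globins. Of the 15 leading higher genes, 11 stayed at least 2-fold different at the control level and 2 had no value there.

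In the other direction *Igf2*, a fetal growth factor from an imprinted gene, had a level of 2.67 in ES-Lhx6-GFP+ cells and was at least 127-fold lower in MGE-GFP+ cells, 10.06-fold at the control level. Its level in ES-Lhx6-GFP- cells was 19.9. *Igfbp1*, which binds insulin-like growth factors, was at least 81.1-fold lower (1.71 in ES-Lhx6-GFP+ cells). *Mpped2* (at least 102-fold), *Cldn6* (at least 101-fold), a claudin of early epithelia, *Eda2r* (at least 58.1-fold), *Fbxw26* (at least 51.5-fold), *Ttr* (at least 47.7-fold), the thyroid hormone carrier of the choroid plexus, *S100g* (at least 43.6-fold), *Shox2* (at least 40.1-fold) and *Slc15a2* (at least 40.0-fold) were not well above background in MGE-GFP+ cells. The 15 leading lower genes differed by 3.17-fold to 13.1-fold with each array raised to its control level, and 10 of the 15 were brighter in ES-Lhx6-GFP- cells than in the GFP+ fraction. Of all reported genes 45.6% were brighter in ES-Lhx6-GFP- cells than in the GFP+ fraction, compared with 35.3% of all those called lower and 58.4% of all those called higher.

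**Figure D5:**
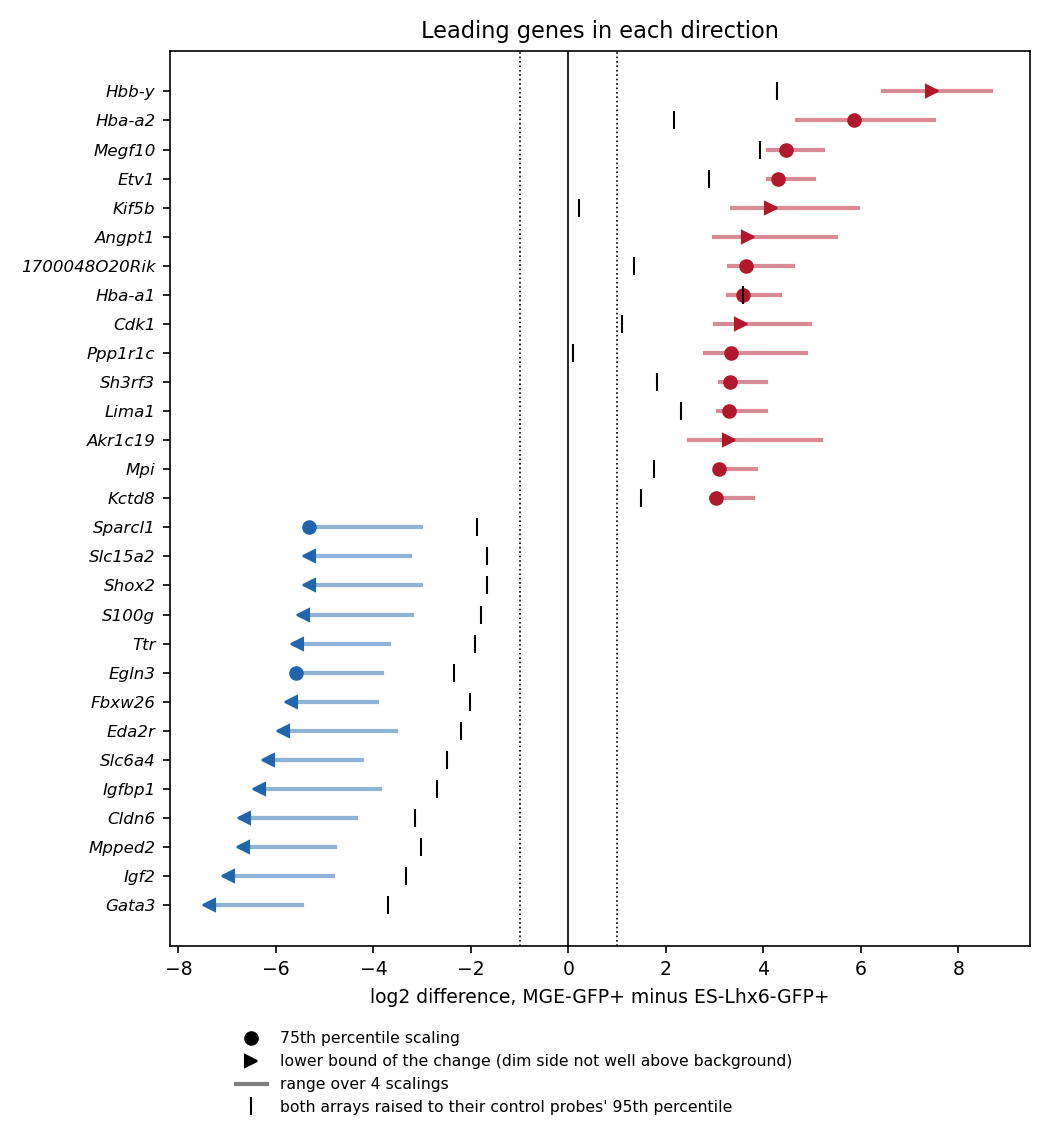
Log2 difference (MGE-GFP+ minus ES-Lhx6-GFP+) of the leading called genes in each direction under the 75th percentile scaling (points, or triangles where the dim side was not well above background), with the range over 4 scalings as bars and the value with each array raised to its control level as black ticks. *Hbb-y* (7.46) and *Gata3* (-7.37) are the outermost genes, and the ticks of *Kif5b* and *Ppp1r1c* fall inside the dotted 2-fold lines.

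Markers of blood were the outermost genes on the embryonic side. The embryonic globin *Hbb-y* had a level of 9.77 in MGE-GFP+ cells and 0.0555 in ES-Lhx6-GFP+ cells (at least 176-fold higher), *Hba-a2* levels of 2.27 and 0.0393 (57.9-fold) and *Hba-a1* levels of 10.4 and 0.865 (12.0-fold). *Hba-x* (2.55-fold) and *Hbb-b2* (2.84-fold) were just above the control range of the MGE-GFP+ array, and globin genes are near-identical copies whose probes may share signal. Of 15 erythroid markers 6 were reported, 5 called higher and 1 lower, with a summed level of 23.2 in MGE-GFP+ cells and 2.80 in ES-Lhx6-GFP+ cells, while *Slc4a1* and *Alas2* were within the control range on both arrays and the factor *Klf1* was 9.05-fold lower in MGE-GFP+ cells (0.179 and 1.62). Of 13 microglial markers 3 were reported and none was called. Their summed levels of 10.9 and 9.79 are mostly *Itgam*, whose 2 probes disagreed in level. One probe had levels of 292 and 256, and the other 0.268 and 0.258. *Cx3cr1*, *C1qa* and *Tyrobp* were among the markers within the control range on both arrays. Of 14 endothelial and pericyte markers 2 were reported, *Kdr* (at least 4.27-fold higher as the mean of 1 probe at 1.26-fold and another at 14.5-fold or more) and *Esam* (3.99-fold lower). Of 12 mesenchymal markers the 2 collagens above, *Col1a2* and *Col3a1*, were reported, with summed levels of 0.215 and 3.08. The part of these other cells in the results was not tested.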

How the data were processed

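RNA of 3 sorted populations was hybridised to 1-colour Agilent mouse arrays, 1 array each on 1 slide. The labels and the study's methods differ on the amplification kit and array format, and the file headers give 62976 spots and Feature Extraction 10.7.3.1. The intensity deposited by the authors is the background-subtracted processed signal of each spot. The log2 values deposited by the authors matched quantile-normalized log2 median signals, with a median absolute difference of 0.039 on both arrays compared.

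Control spots and outlier spots were left out, repeat spots of a probe were averaged, and each intensity was divided by the 75th percentile of mouse probes on its array. Spots not well above background were set to the lowest signal among probes well above background, or their own signal where higher, which gives bounds ("at least"). Accessions were named through the RefSeq gene table, which named 26582 of 55681 mouse probes. The log2 values of the probes of a gene were averaged. The 29099 probes without a name are not described, although 10780 of them were above the control probes on at least 1 array.

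The genes named are members of 41 gene lists and the 15 leading called genes in each direction. Some of these genes are not reported here by name, although the counts and medians hold them. The comparison, the members and the lists were chosen with earlier results of these data known. Since each group is 1 array, the number of arrays limits the precision and no test was run. Alternatives were the 50th percentile, quantile normalization, the deposited log2 values, normexp background correction, the control level as a floor, stricter and absent filters, the brightest probe and retained outlier spots. The steps were tested on simulated data. Python 3.11.15 (numpy 2.4.6, pandas 2.3.3), R 4.3.3 and limma 3.58.1 were used.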

Additional observations from a re-analysis of the deposited data

How the results depend on the processing

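Scaling to the 50th percentile gave 4634 genes at least 2-fold higher and 458 lower in MGE-GFP+ cells, compared with 983 and 1040 for the 75th percentile, and moved the median log2 difference from 0.13 to 0.87, so that 91.0% in place of 48.6% of the 2-fold genes were higher. Requiring signal above the control probes on both arrays gave 694 higher and 553 lower genes. Without any filter on the control probes 1015 genes were higher and 5972 lower, the median was -0.36, and *Mbd1* (-0.10) and *Mbp* (-0.15) changed direction. Quantile normalization, the deposited log2 values, normexp, the control level as a floor, the brightest probe and retained outlier spots gave 756 to 1147 higher and 848 to 1042 lower genes. The normexp correction was run on median spot signals, a choice made after seeing the data, and the planned version on mean signals was not run. Of the 747 genes of the lists and leading genes, 235 were at least 2-fold different, 158 of them under all 4 scalings, and 233 kept their direction in every setting that gave a value. No paired analysis was possible because each group holds 1 array, and for the same reason no replicate could be left out. The control probes reached levels of 0.506 and 0.265 for ES-Lhx6-GFP+ and MGE-GFP+, and differences of genes under these levels are limited by background.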

Other observations

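Olfactory receptor genes, which belong to none of the comparisons above, were named by probes for 1070 genes, of which 55 passed the filter on control probes. Of these, 23 were above the control range on the ES-Lhx6-GFP+ array alone, 12 on the MGE-GFP+ array alone and 20 on both arrays. In MGE-GFP+ cells 22 of the 55 were called lower and 1 higher, with a median log2 difference of -0.78. Of all reported genes 4.1% were called lower and 6.2% higher. The control probes themselves had a median intensity of 8.48 for MGE-GFP+ and 70.6 for ES-Lhx6-GFP+, and 34 and 86 of the 106 were well above background.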
